A study of Mus musculus with 48 samples.

Results

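Bile acid transport and sensing was followed in mouse jejunum through 8 genes chosen by name: Slc51a, Slc51b, Abcc3, Nr1h4, Nr0b2, Slc10a2, Fabp6 and Fgf15. Each matched 1 row of the 55401 gene IDs in the count table through its Ensembl ID. A filter on low counts kept 15646 genes, among them 5 of the 8. Nr0b2, Fabp6 and Fgf15 did not pass it and are given below as raw counts. Values of the others are CPM, the count of a gene per M (mega) counts of the kept genes after scaling between libraries.

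RNA was sequenced from jejunum tissue, a small intestinal segment between duodenum and ileum, of mice of 2 genotypes held in constant darkness. The knockout is labelled Bmal1iec-/-, and its loss of Bmal1, a core transcription factor of the circadian clock, is aimed at the intestinal epithelium. The control is labelled bmal1fl/fl and carries floxed Bmal1 alleles without that deletion. Both were sampled every 4 h at 6 circadian times, written CT1 to CT21, with CT counting hours of the animals' own cycle. The groups hold 4 libraries each, and knockout CT9 holds 3. The sources used here give neither the driver of the deletion nor the age of the animals. Whether libraries stem from separate mice is not stated, and p-values therefore reflect the spread between these libraries, which may be technical. In such bulk tissue, fewer cells of a type and less RNA per cell cannot be told apart.

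Bile acids are made in the liver, secreted into the gut lumen and recovered mainly in the ileum, the segment after the jejunum. There the apical carrier ASBT (Slc10a2) takes them up, the cytosolic protein IBABP (Fabp6) binds them, and OST, a transporter that needs both an alpha subunit (Slc51a) and a beta subunit (Slc51b), passes them across the basolateral membrane towards the blood, with the pump MRP3 (Abcc3) as another way out. In the cell they activate the nuclear receptor FXR (Nr1h4), which induces Slc51a, Slc51b, Fabp6, the repressor SHP (Nr0b2) and the hormone FGF15 (Fgf15), a signal that lowers bile acid synthesis in the liver.

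The start regions of 4 of these genes are shown because they hold letters that BMAL1 or nuclear receptors are known to bind. RefSeq windows of GRCm38.p6, the build of mm10, run from 250 bases before to 50 bases after the transcript start that RefSeq's table uses and were matched for 6 of the 8 genes, Slc51a, Slc51b, Nr1h4, Nr0b2, Slc10a2 and Fabp6. That start equals the outer end of the annotated gene for Slc51a and Nr0b2 and lies 182 bases inside the gene for Slc51b. For Nr1h4 it is an internal start, 26927 bases inside the gene, so the window is not the region before the outer start of Nr1h4. Capitals mark the E-box CACGTG, which reads the same on both strands and is the site of the BMAL1 and CLOCK pair, and the hexamer AGGTCA, which nuclear receptors bind singly or in repeats, written TGACCT where it lies on the opposite strand. The Slc51a window lies at chr16:32487830-32488129 on the minus strand, that of Slc51b at chr9:65422724-65423023 on the minus strand, that of Nr1h4 at chr10:89506609-89506908 on the minus strand and that of Nr0b2 at chr4:133553126-133553425 on the plus strand.
Slc51a: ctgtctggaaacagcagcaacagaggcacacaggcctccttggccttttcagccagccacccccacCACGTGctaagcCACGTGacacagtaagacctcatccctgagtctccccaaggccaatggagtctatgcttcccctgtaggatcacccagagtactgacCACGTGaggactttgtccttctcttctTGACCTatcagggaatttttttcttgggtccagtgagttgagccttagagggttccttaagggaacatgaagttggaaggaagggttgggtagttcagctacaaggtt
Slc51b: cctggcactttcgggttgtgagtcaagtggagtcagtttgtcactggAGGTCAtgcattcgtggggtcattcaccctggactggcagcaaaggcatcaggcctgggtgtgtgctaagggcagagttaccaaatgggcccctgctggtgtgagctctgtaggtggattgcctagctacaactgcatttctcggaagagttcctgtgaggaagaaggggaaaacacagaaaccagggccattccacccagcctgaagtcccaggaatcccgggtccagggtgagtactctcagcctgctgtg
Nr1h4: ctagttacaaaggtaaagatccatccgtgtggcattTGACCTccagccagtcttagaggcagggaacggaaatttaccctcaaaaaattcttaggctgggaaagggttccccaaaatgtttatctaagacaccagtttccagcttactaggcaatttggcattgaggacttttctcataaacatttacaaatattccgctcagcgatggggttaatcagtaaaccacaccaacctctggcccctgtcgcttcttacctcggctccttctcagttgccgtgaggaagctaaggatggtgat
Nr0b2: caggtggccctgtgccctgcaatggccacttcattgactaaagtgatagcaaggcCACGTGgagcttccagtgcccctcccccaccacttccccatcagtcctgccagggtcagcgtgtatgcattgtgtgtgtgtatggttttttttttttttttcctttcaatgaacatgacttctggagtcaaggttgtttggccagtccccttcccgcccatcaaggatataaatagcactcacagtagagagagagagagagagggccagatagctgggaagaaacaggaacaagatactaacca
Counted from the start of each window's transcript, Slc51a held 3 E-boxes, which begin at −184, −172 and −85, and a receptor hexamer that begins at −58. An E-box was found in 7.15% of all 32851 windows of the table, and 3 or more of them in 29 windows (0.0883%), which belong to 25 genes. The cut of 3 is the number seen in Slc51a, so that share is a description only. Nr0b2 held 1 E-box, which begins at −195. Slc51b and Nr1h4 held 1 receptor hexamer each, which begins at −203 in Slc51b and at −214 from the internal start in Nr1h4, and a hexamer was found in 16.3% of all windows. The inverted repeat of that hexamer with 1 base between (IR1, the classical FXR site), which overlaps the single hexamer and was found in 0.00913% of windows, and the D-box TTATGTAA, found in 0.938%, were searched on both strands and were in none of the 6 windows. The windows of Slc10a2 and Fabp6 held none of these motifs. Only exact copies were searched, with any base allowed at the centre of IR1. Copies with a mismatch were not looked for, so the lack of an exact IR1 does not show that an FXR site is absent. A match describes letters, and binding was not measured here.

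The 23 knockout libraries held 4.79 to 6.91 M counts each, and the 24 control libraries 4.34 to 6.06 M. Knockout CT1 replicates 1, 2 and 3, knockout CT21 replicate 4 and control CT21 replicate 1 stood apart from the other 42 libraries. Relative log expression, the deviation of each gene from its median over libraries, had an interquartile range of 0.600 to 1.12 in these 5 and of 0.476 or less elsewhere. They also differed in how that deviation depended on exon length, with slopes of −0.262 to −0.108 per doubling of length, against −0.0547 to 0.0657 in the others. The 4 pancreatic acinar markers (Cela1, Clps, Cpa1 and Prss2) summed to 100.1 to 233 CPM in the 4 knockout libraries that stand apart and 78.4 to 205 CPM in the other 19, and to 184 CPM in the control library that stands apart and 72.1 to 125 CPM in the other 23. The part of length dependence or of these markers in the CT1 and CT21 values was not tested. Results that rest on these libraries are given with and without them. Without them knockout CT1 has 1 library, and a CT1 value then sets that lone library against control, with a spread taken from the other groups. The targeted gene, Arntl (Bmal1), stood at 18.4 to 37.0 CPM in knockout libraries and at 8.48 to 89.4 CPM in control libraries, and its 24-h rhythm differed between the genotypes (edgeR adjusted p = 2.3e-16). Its count sums the whole gene and does not show the deletion. The 5 enterocyte markers (Alpi, Vil1, Fabp2, Sis and Apob) summed to 15523 to 24539 CPM in knockout libraries and 15317 to 23655 CPM in control libraries, and the colon markers Car1, Hoxb13 and Hoxd13 did not pass the filter and summed to 0 to 1.10 CPM in knockout libraries and 0 to 3.67 CPM in control libraries.

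Averaged over the 6 times, 4 of the 5 genes that passed the filter rose in the knockout (Slc51a, Slc51b, Abcc3 and Nr1h4), 0 fell and 1, Slc10a2, was not called. Slc10a2 was kept by the filter through 6 libraries, 4 of them control CT13, so its place among the 5 is a description only. Of all 15646 genes tested, 12.2% rose and 11.0% fell at the same threshold, an adjusted p of 0.05 in edgeR's quasi-likelihood test. The median log2 fold change of the 5 was 0.52, and that of all genes was −0.0058. After the 5 libraries that stand apart were left out, the same 4 rose, 0 fell and the median was 0.37, where 10.3% of 16463 genes rose and 11.1% fell. At single times the number that rose was 2 in CT1 libraries (12.6% of all genes rose there), 1 in CT5 (0.499%), 1 in CT9 (1.49%), 2 in CT13 (2.04%), 0 in CT17 (0.684%) and 0 in CT21 (0.677%). Leaving out the 5 libraries changed this to 0 in CT1 (0.146%), 1 in CT5 (1.03%), 2 in CT9 (2.68%), 3 in CT13 (4.02%), 1 in CT17 (2.2%) and 1 in CT21 (0.856%). Where 0 passed with all libraries in edgeR, 1 gene had an unadjusted p under 0.05 at CT17 (Slc51a, 0.0031) and 3 had one at CT21 (Slc51a, 0.0012, Abcc3, 0.0015, and Slc51b, 0.0027). DESeq2 called 0 at CT17 and called Slc51a, Slc51b and Abcc3 at CT21 (adjusted p = 0.0265, 0.0437 and 0.0332), and limma-voom called 0 at either time.

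**Figure D1:**
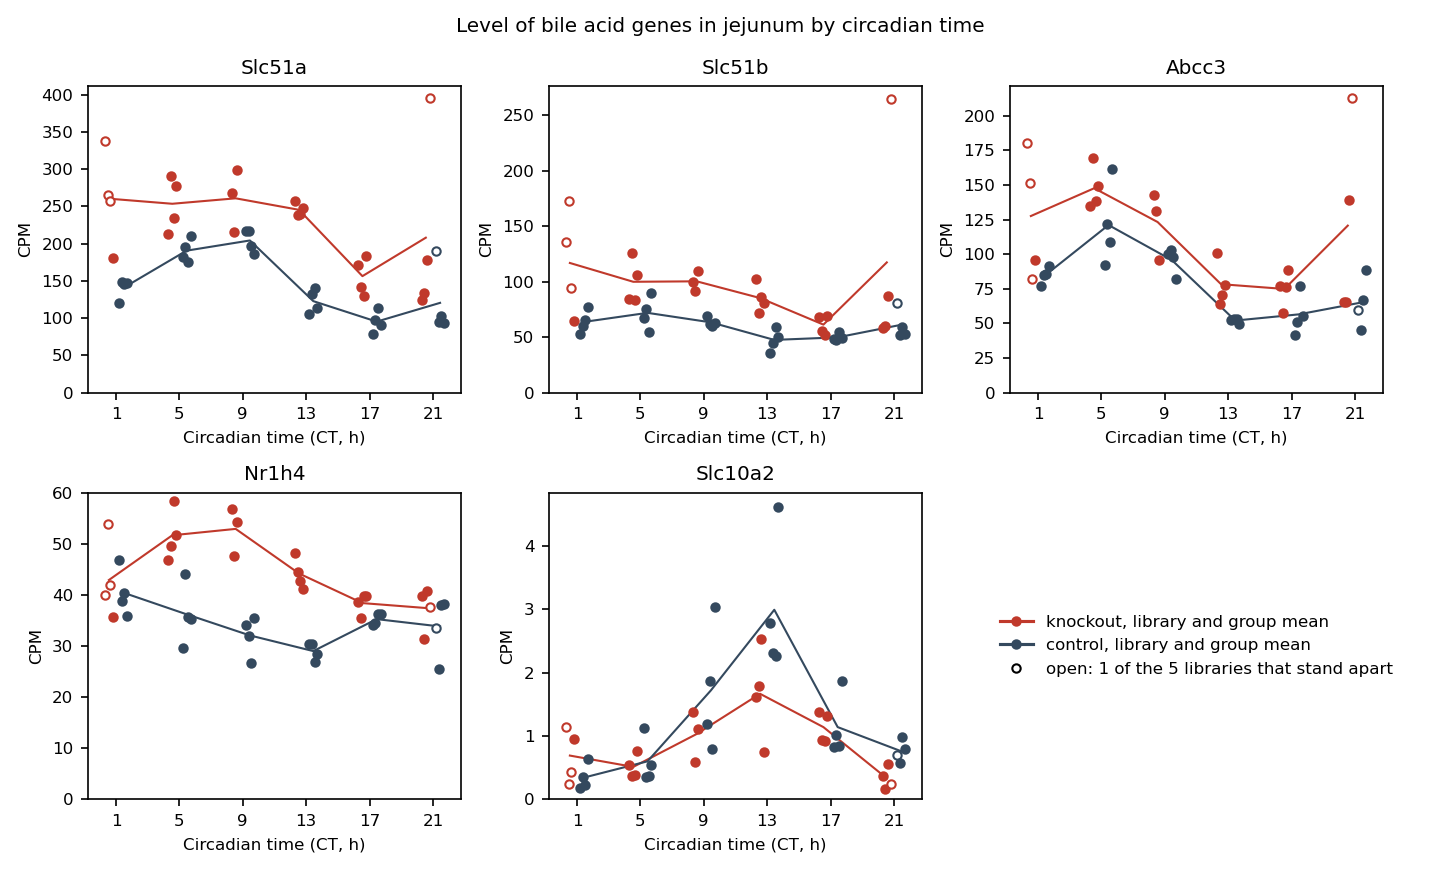
CPM of the 5 genes kept by the filter against circadian time in hours, knockout in red and left of control in dark blue, with 1 point per library, open points for the 5 libraries that stand apart and lines through group means (n = 4, 3 in knockout CT9). The knockout points of Slc51a lie above all control points at CT1, where 3 of the knockout points are open, and at CT5, CT13 and CT17. Those of Nr1h4 do so at CT5, CT9 and CT13. The share of all genes with such separate ranges was not counted.

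Slc51a, the alpha subunit of OST, is the protein-coding gene ENSMUSG00000035699.8 on chromosome 16, positions 32474504 to 32487879, minus strand of mm10. Averaged over its 6 group means it stood at 231 CPM in knockout and 146 CPM in control. The log2 fold change over all times was 0.69 (SE 0.09, edgeR adjusted p = 2.1e-07), a 1.62-fold higher level, and without the 5 libraries it was 0.56 (adjusted p = 1.4e-10). Over the other 8 settings tried it ranged from 0.56 to 0.70 and passed in each.

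At CT1 the knockout libraries held 338, 265, 258 and 181 CPM of Slc51a, the first 3 of them from libraries that stand apart, and the control libraries held 120.2, 149, 146 and 147 CPM. At CT5 the values were 213, 290.1, 234 and 277 CPM in knockout and 182, 196, 175 and 209.8 CPM in control. At CT9 they were 268, 216 and 298 CPM in knockout and 216, 218, 197 and 186 CPM in control. The knockout range lay wholly above that of control at CT1 and CT5, and the lowest knockout library at CT9 lay just under the highest control libraries. At CT13 the knockout libraries held 257, 238, 239 and 247 CPM, against 105, 132, 140.2 and 114 CPM in control libraries. At CT17 the values were 171, 142, 129.8 and 183 CPM in knockout and 78.7, 97.8, 114 and 90.7 CPM in control. At CT21 they were 124, 133, 178 and 396 CPM in knockout, the last from a library that stands apart, and 190.5, 95.0, 103 and 93.2 CPM in control, the first from such a library. At CT13 and CT17 the ranges did not overlap, and at CT21 they overlapped through control CT21 replicate 1. The share of all genes whose ranges are separate at a time was not counted, for Slc51a or for the genes below. The difference was widest at CT13, with 245 ± 8.78 CPM in knockout and 123 ± 16.3 CPM in control (SD, n = 4 each; log2 fold change 1.00, SE 0.23, edgeR adjusted p = 0.0048).

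At CT1 the log2 fold change of Slc51a was 0.89 (SE 0.23, edgeR adjusted p = 0.0058). It fell below the threshold without the 5 libraries (0.33, adjusted p = 0.486, with 1 knockout library) and with their spread as a covariate (0.38, adjusted p = 0.106), and over the other settings the adjusted p ranged from 0.0019 to 0.486. At CT17 it was 0.72 (SE 0.23, adjusted p = 0.102), and it passed without the 5 libraries (adjusted p = 1.1e-04), without knockout CT21 replicate 4 alone (0.0098) and with the covariate (0.0011), in an alternative range of 1.1e-04 to 0.281. At CT21 it was 0.79 (SE 0.23, adjusted p = 0.0733) and 0.59 without the 5 libraries (0.0174), with an alternative range of 0.0065 to 0.171. Leaving out 1 library brought CT21 past the threshold for knockout CT1 replicate 1 (0.0455), knockout CT1 replicate 4 (0.0438), knockout CT21 replicate 1 (0.0136), knockout CT21 replicate 2 (0.0180) and control CT21 replicate 1 (0.0050), and without knockout CT21 replicate 4 the log2 fold change was 0.29 (0.464). At CT5 (0.41, SE 0.22, adjusted p = 0.761) and CT9 (0.35, SE 0.24, 0.667) it did not pass. The test that the difference varied with time did not pass for Slc51a (adjusted p = 0.747), so the times were not shown to differ from each other.

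Slc51a shares 567 of its 3198 exon bases (17.7%) with Pcyt1a on the opposite strand. Pcyt1a, which encodes an enzyme of phosphatidylcholine synthesis, averaged 326 CPM in knockout and 246 CPM in control (log2 fold change 0.40, SE 0.08, edgeR adjusted p = 3.7e-04). The sources used here do not give the strand setting of the counting, so reads from the shared bases cannot be assigned to either gene. Their part in the result was not tested.

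Slc51b, the beta subunit that OST needs beside the alpha subunit, is the protein-coding gene ENSMUSG00000053862.6 on chromosome 9, positions 65412714 to 65422955, minus strand. Over the 6 group means it stood at 96.9 CPM in knockout and 59.6 CPM in control. The log2 fold change over all times was 0.68 (SE 0.12, edgeR adjusted p = 3.5e-05), close to that of Slc51a. It was 0.43 without the 5 libraries (adjusted p = 1.4e-05), the lowest of the alternatives, which ranged up to 0.69. Rasl12, on the opposite strand, shares 91 of the 709 exon bases of Slc51b (12.8%) and did not pass the test (0.14, adjusted p = 0.309).

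Slc51b stood at 136, 173, 94.2 and 64.5 CPM in the knockout libraries at CT1 and at 52.8, 60.3, 65.1 and 77.0 CPM in the control libraries. At CT5 the values were 84.9, 126, 83.5 and 106 CPM in knockout and 67.7, 75.1, 54.9 and 90.0 CPM in control. At CT9 they were 99.4, 92.0 and 109.8 CPM in knockout and 68.8, 61.9, 59.9 and 62.8 CPM in control. The ranges overlapped at CT1 through knockout replicate 4, the library of that group that does not stand apart, and at CT5, and were separate at CT9. At CT13 the values of Slc51b were 102, 71.7, 86.3 and 80.8 CPM in knockout and 36.1, 44.7, 59.6 and 49.7 CPM in control. At CT17 they were 68.5, 55.8, 52.3 and 68.7 CPM in knockout and 48.2, 47.1, 54.6 and 49.4 CPM in control. At CT21 they were 58.0, 59.8, 86.9 and 265 CPM in knockout and 80.6, 52.0, 58.8 and 53.2 CPM in control. The ranges were separate at CT13 and overlapped at CT17 and CT21, where knockout replicate 4, a library that stands apart, was the highest of its group by a wide gap.

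The only single time at which Slc51b passed with all libraries was CT1 (log2 fold change 0.87, SE 0.29, edgeR adjusted p = 0.0299). Without the 5 libraries, the 1 knockout library left at CT1 differed from control by −0.020 (adjusted p = 0.988, with the spread of the other groups), which is too few libraries to set a direction, and over the alternatives the adjusted p ranged from 0.0162 to 0.988. The call also ended without knockout CT1 replicate 1 (0.103) or 2 (0.137) and without control CT1 replicate 1 (0.102), 2 (0.0674) or 3 (0.0604). Conversely, Slc51b passed without the 5 libraries at CT9 (0.67, adjusted p = 0.0059, against 0.356 with them) and at CT13 (0.84, 2.2e-04, against 0.117), with alternative ranges of 0.0059 to 0.689 at CT9 and 2.2e-04 to 0.315 at CT13. Leaving out knockout CT21 replicate 4 alone sufficed at CT13 (0.0056). At CT21 the log2 fold change was 0.94 (SE 0.29, adjusted p = 0.116) with all libraries and 0.33 without the 5 (0.440), and it was 0.17 without knockout CT21 replicate 4 alone (0.745). Without knockout CT21 replicate 1 (0.0264) or 2 (0.0284) it passed.

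Per kilobase of annotated exon bases (3198 for Slc51a and 709 for Slc51b), Slc51b stood higher than Slc51a in each genotype. These lengths join the exons of all annotated transcripts of a gene. The lengths of the transcripts present in jejunum were not determined, so the order and the ratio below hold for these lengths only. Its median level per library was 122 CPM per kb in knockout and 83.5 CPM per kb in control, and that of Slc51a was 74.4 CPM per kb in knockout and 44.8 CPM per kb in control. The ratio of Slc51a to Slc51b per length was 0.556 in knockout (median, 0.331 to 0.735 over 23 libraries) and 0.519 in control (0.362 to 0.779 over 24 libraries), and the ranges overlapped. Nr1h4 (18.2 CPM per kb in knockout and 15.2 in control) and Abcc3 (16.8 CPM per kb in knockout and 14.0 in control) stood below both subunits, and Slc10a2 stood far below all 4 (0.184 CPM per kb in knockout and 0.201 in control).

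Both OST subunits also moved together between libraries of the same group. The share of all gene pairs that do so was not counted, for these or for the pairs below. Deviations of log2 CPM from the group mean gave a Pearson r of 0.87 and a Spearman rho of 0.82 over 47 libraries (two-sided permutation test within groups, p = 1e-05 for each, the smallest that 100000 permutations can give, adjusted p = 1e-04 over 10 pairs of genes). Without the 2 libraries farthest from the median, knockout CT21 replicate 4 and control CT21 replicate 1, r was 0.81. It was 0.78 over the 41 libraries left without the 5 that stand apart and the lone library then left in knockout CT1, 0.93 in knockout and 0.75 in control. Abcc3 followed Slc51b (r = 0.71, rho = 0.58, adjusted p = 0.0032 and 0.0015) and Slc51a (r = 0.63, rho = 0.52, adjusted p = 0.017 and 0.0063) over all libraries by the same permutation test. Without the 2 libraries farthest out, r was 0.61 for Abcc3 with Slc51b and 0.59 with Slc51a. Within control libraries alone Abcc3 did not pass with Slc51b (r = 0.32) or Slc51a (r = 0.28, permutation adjusted p = 0.69 and 0.92). Within knockout r was 0.82 with Slc51b and 0.77 with Slc51a (permutation adjusted p = 0.0091 and 0.018). These values depended on the 2 libraries farthest out. Without them r with Slc51b was 0.42 in control and 0.74 in knockout. With Slc51a it was 0.74 in control, without control CT21 replicates 1 and 4, and 0.57 in knockout. Whether r differs between the genotypes was not tested. Nr1h4 did not follow Slc51a (r = 0.13), Slc51b (0.20) or Abcc3 (0.35) past the threshold (permutation adjusted p = 0.91, 0.6 and 0.17).

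**Figure D2:**
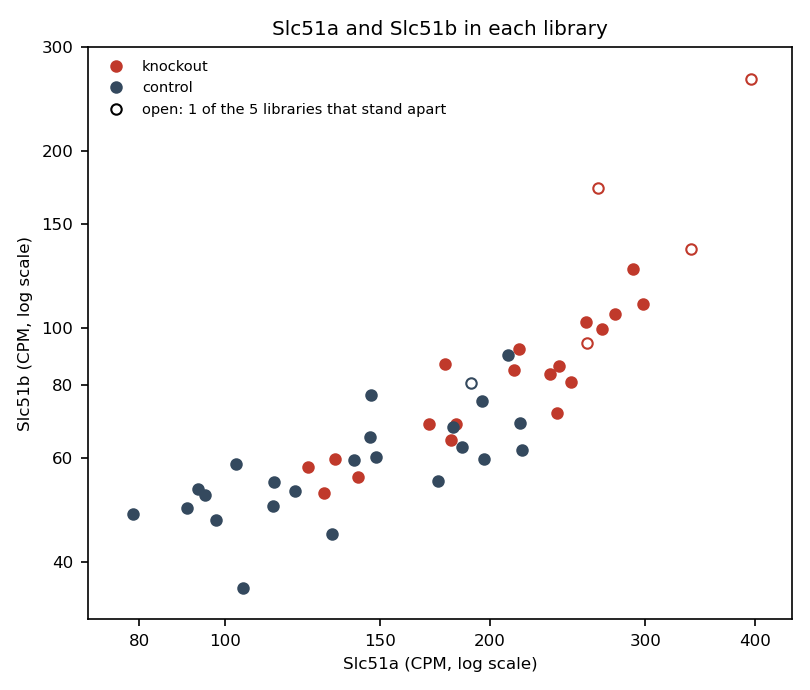
CPM of Slc51b against CPM of Slc51a in each library, both axes on a log scale, knockout in red and control in dark blue, with open points for the 5 libraries that stand apart. The 47 points follow 1 rising band, with the knockout libraries towards its upper end and knockout CT21 replicate 4 at its top (396 CPM of Slc51a and 265 CPM of Slc51b).

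Abcc3 encodes MRP3, an ATP-driven pump of the basolateral membrane that carries conjugated organic anions and bile acids. It is the protein-coding gene ENSMUSG00000020865.16 on chromosome 11, positions 94343295 to 94392997, minus strand. Over the 6 group means it stood at 112 CPM in knockout and 79.2 CPM in control, a log2 fold change of 0.52 over all times (SE 0.11, edgeR adjusted p = 2.6e-04). Without the 5 libraries it was 0.37 (adjusted p = 0.0075), and it passed in all 8 alternatives (2.0e-05 to 0.0075).

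Abcc3 had its highest group mean at CT5 in both genotypes (148 ± 15.6 CPM in knockout and 121 ± 29.5 CPM in control, SD, n = 4 each). At CT1 it stood at 180.5, 152, 82.1 and 95.9 CPM in knockout and 76.8, 85.0, 85.4 and 91.6 CPM in control. At CT5 the values were 134, 169, 138 and 149 CPM in knockout and 92.4, 122, 109 and 162 CPM in control. At CT9 they were 143, 131 and 95.7 CPM in knockout and 100.2, 103, 97.9 and 82.0 CPM in control. At these 3 times the ranges overlapped, each time through 1 low knockout or 1 high control library. At CT13 Abcc3 stood at 101, 63.9, 70.4 and 77.9 CPM in knockout and 52.6, 52.9, 53.3 and 49.3 CPM in control. At CT17 the values were 76.8, 57.6, 76.4 and 88.8 CPM in knockout and 41.9, 51.2, 77.3 and 55.7 CPM in control. At CT21 they were 65.2, 65.2, 139 and 213 CPM in knockout and 59.9, 45.1, 66.8 and 88.9 CPM in control. CT13 was the 1 time of 6 at which the ranges were separate.

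At no single time did Abcc3 pass with all libraries. Its largest log2 fold change was 0.88 at CT21 (SE 0.26, edgeR adjusted p = 0.0832), which was 0.44 without the 5 libraries (0.493) and 0.47 without knockout CT21 replicate 4 (0.373), and the alternative range of adjusted p was 0.0332 to 0.493. It passed at CT21 without knockout CT21 replicate 1 (0.0175), knockout CT21 replicate 2 (0.0173) or control CT21 replicate 4 (0.0400), and at CT1 without knockout CT1 replicate 3 (0.0491, against 0.0937 with it). The log2 fold change at CT13 was 0.59 (SE 0.26, adjusted p = 0.269). The difference was not shown to vary with time (adjusted p = 0.902).

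**Figure D3:**
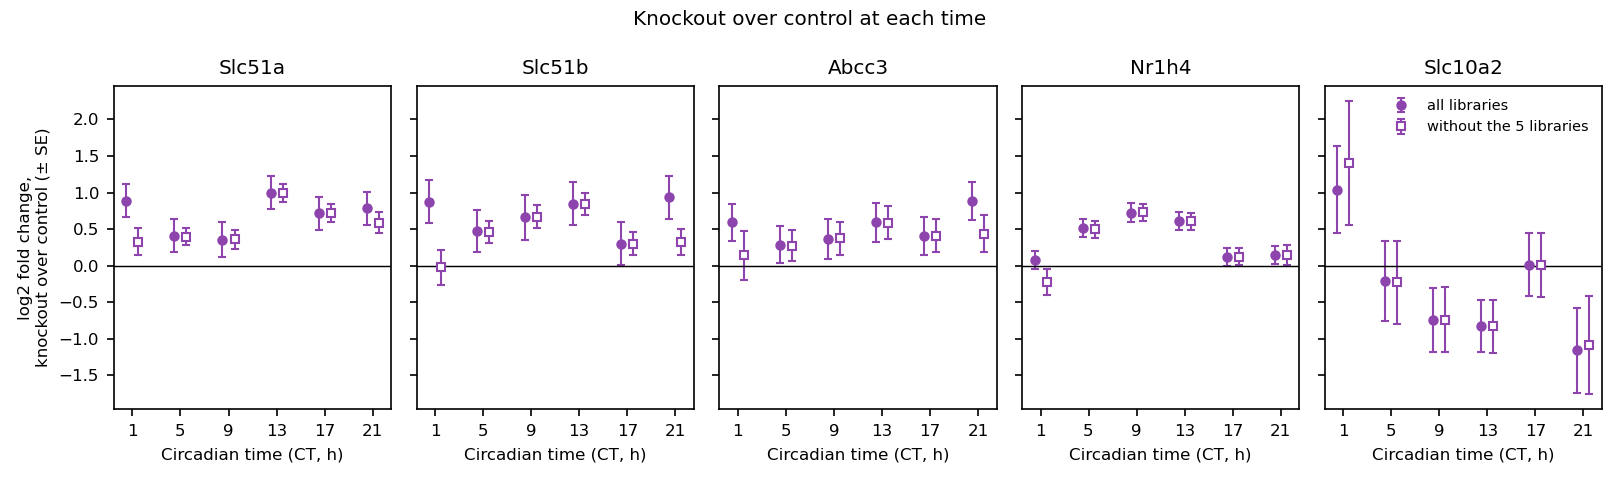
Log2 fold change of knockout over control at each circadian time, with bars of 1 SE, for the 5 genes kept by the filter, as filled points from all 47 libraries and open squares from the 42 left without those that stand apart. Slc51a is above 0 at each time and highest at CT13 (1.00), Nr1h4 is highest at CT9 (0.72), and at CT1 and CT21 the open squares of Slc51a, Slc51b and Abcc3 lie below the filled points.

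Nr1h4 encodes FXR, the nuclear receptor that bile acids activate. It is the protein-coding gene ENSMUSG00000047638.15 on chromosome 10, positions 89454234 to 89533585, minus strand. Over the 6 group means it stood at 44.6 CPM in knockout and 34.5 CPM in control, a log2 fold change of 0.37 over all times (SE 0.05, edgeR adjusted p = 4.0e-07) and of 0.31 without the 5 libraries (1.4e-05). It passed in all 8 alternatives (2.8e-10 to 1.4e-05).

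The higher level of Nr1h4 lay in the middle of the series. At CT5 the values were 46.9, 49.7, 58.5 and 51.8 CPM in knockout and 29.6, 44.2, 35.7 and 35.4 CPM in control. At CT9 they were 57.0, 47.6 and 54.3 CPM in knockout and 34.1, 32.1, 26.7 and 35.5 CPM in control. At CT13 they were 48.3, 44.6, 42.8 and 41.2 CPM in knockout and 30.4, 30.3, 26.8 and 28.5 CPM in control. The ranges were separate at these 3 times and overlapped at the other 3. At CT1 Nr1h4 stood at 40.1, 53.9, 42.0 and 35.8 CPM in knockout and 46.9, 38.8, 40.3 and 36.0 CPM in control. At CT17 the values were 38.6, 35.4, 39.8 and 39.9 CPM in knockout and 34.1, 34.5, 36.2 and 36.3 CPM in control. At CT21 they were 39.8, 31.5, 40.9 and 37.7 CPM in knockout and 33.6, 25.5, 38.0 and 38.2 CPM in control. The group means at CT17 were close, with 38.4 ± 2.08 CPM in knockout and 35.3 ± 1.16 CPM in control (SD, n = 4 each).

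Nr1h4 passed at CT9 (log2 fold change 0.72, SE 0.13, edgeR adjusted p = 2.9e-04) and CT13 (0.61, SE 0.12, 0.0013), in each alternative and without any 1 library. It passed at CT5 (0.51, SE 0.12, 0.0254) but not without a filter on low counts (0.152), with an alternative range of 0.0093 to 0.152. The call at CT5 also ended without knockout CT5 replicate 2 (0.0746), 3 (0.156) or 4 (0.0823) and without control CT5 replicate 1 (0.263), 3 (0.0934) or 4 (0.11). At CT1 (0.08, adjusted p = 0.671), CT17 (0.12, 0.820) and CT21 (0.15, 0.821) it did not pass, and at CT1 the value was −0.22 without the 5 libraries (0.671, with 1 knockout library) and −0.062 without knockout CT1 replicate 2 (0.761).

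Whether the difference in Nr1h4 varied with time was close to the threshold. The test over 6 group differences gave an adjusted p of 0.0743 with all libraries, where 1.18% of genes passed, and 0.0175 without the 5 libraries, where 1.36% did. DESeq2 (0.0175) and the covariate of library spread (0.0461) also brought it past the threshold, and the alternatives ranged up to 0.361. It passed without knockout CT1 replicate 2 (0.0165), knockout CT21 replicate 4 (0.0335), control CT5 replicate 2 (0.0327) or control CT21 replicate 2 (0.0250).

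The 24-h pattern of Nr1h4 differed between the genotypes in a test of amplitude and peak time together (edgeR adjusted p = 0.0106). Of all genes 1.5% passed that test, and Nr1h4 passed it while Slc51a, Slc51b and Abcc3 did not. The fitted peak was at CT7.37 (SE 0.72 h) with an amplitude of 0.27 on the log2 scale (SE 0.05, adjusted p = 0.0018) in knockout, and at CT0.723 (SE 1.07 h) with an amplitude of 0.18 (SE 0.05, adjusted p = 0.0233) in control. The highest knockout group means were at CT5 and CT9 (51.7 ± 4.93 and 53.0 ± 4.80 CPM, SD, n = 4 and 3), where control fell between its high at CT1 (40.5 ± 4.63 CPM) and its low at CT13 (29.0 ± 1.71 CPM, n = 4 each). Leaving out the 5 libraries, the test of the difference gave 0.0052 (1.59% of genes passed), and the peaks stood at CT7.81 in knockout and CT0.559 in control. The difference passed without any 1 library (0.0012 to 0.0287), but not without a filter on low counts (0.0555) or as the test over group means above (0.0743), which were the highest of the alternatives (lowest 0.0024). The control rhythm by itself did not pass without the filter (0.0850), in the test over group means (0.0645) or without control CT1 replicate 1 (0.0739), in an alternative range of 0.0078 to 0.0850.

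Of the 3 exporter genes, Abcc3 passed as rhythmic in both genotypes, Slc51a in control alone and Slc51b in neither with all libraries, and the genotypes were not shown to differ in any of the 3. Of all genes, 14.6% had a rhythm in knockout and 20.5% in control. Slc51a had an amplitude of 0.30 (SE 0.10, peak CT5.94, edgeR adjusted p = 0.0697) in knockout and 0.52 (SE 0.09, peak CT6.24, adjusted p = 1.9e-04) in control. The knockout rhythm of Slc51a passed without the 5 libraries, with an amplitude of 0.49 (SE 0.06) and a peak at CT8.51 (SE 0.44 h, adjusted p = 2.1e-07), against 0.60 (SE 0.05) and CT6.65 (SE 0.32 h, 1.8e-12) in control. There 10.4% of genes had a rhythm in knockout and 29.0% in control, and over the alternatives the adjusted p of the Slc51a knockout rhythm ranged from 2.1e-07 to 0.166. It also passed without knockout CT1 replicate 4 (0.0467), knockout CT5 replicate 1 (0.0491), knockout CT21 replicate 4 (0.0022) or control CT21 replicate 1 (0.0345). The difference between the genotypes in the Slc51a rhythm did not pass with all libraries (0.827) or without the 5 (0.0738).

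Abcc3 was rhythmic in both genotypes, with an amplitude of 0.49 (SE 0.11, peak CT3.34, edgeR adjusted p = 0.0063) in knockout and 0.58 (SE 0.10, peak CT4.75, adjusted p = 2.0e-04) in control. Its peaks without the 5 libraries stood at CT4.75 in knockout and CT4.70 in control, and the difference did not pass with all libraries (0.859) or without the 5 (0.991). Slc51b did not pass as rhythmic with all libraries in knockout (amplitude 0.32, SE 0.12, adjusted p = 0.12) or control (0.28, SE 0.12, 0.221). It passed in both without the 5 libraries, with an amplitude of 0.37 and a peak at CT7.52 (SE 0.74 h, 5.7e-04) in knockout and an amplitude of 0.29 and a peak at CT4.19 (SE 0.84 h, 0.0011) in control, and without knockout CT21 replicate 4 alone (0.0065 in knockout and 0.0331 in control). The alternatives ranged from 5.7e-04 to 0.239 in knockout and from 0.0011 to 0.553 in control. The difference between the genotypes did not pass for Slc51b with all libraries (0.980) or without the 5 (0.338).

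**Figure D4:**
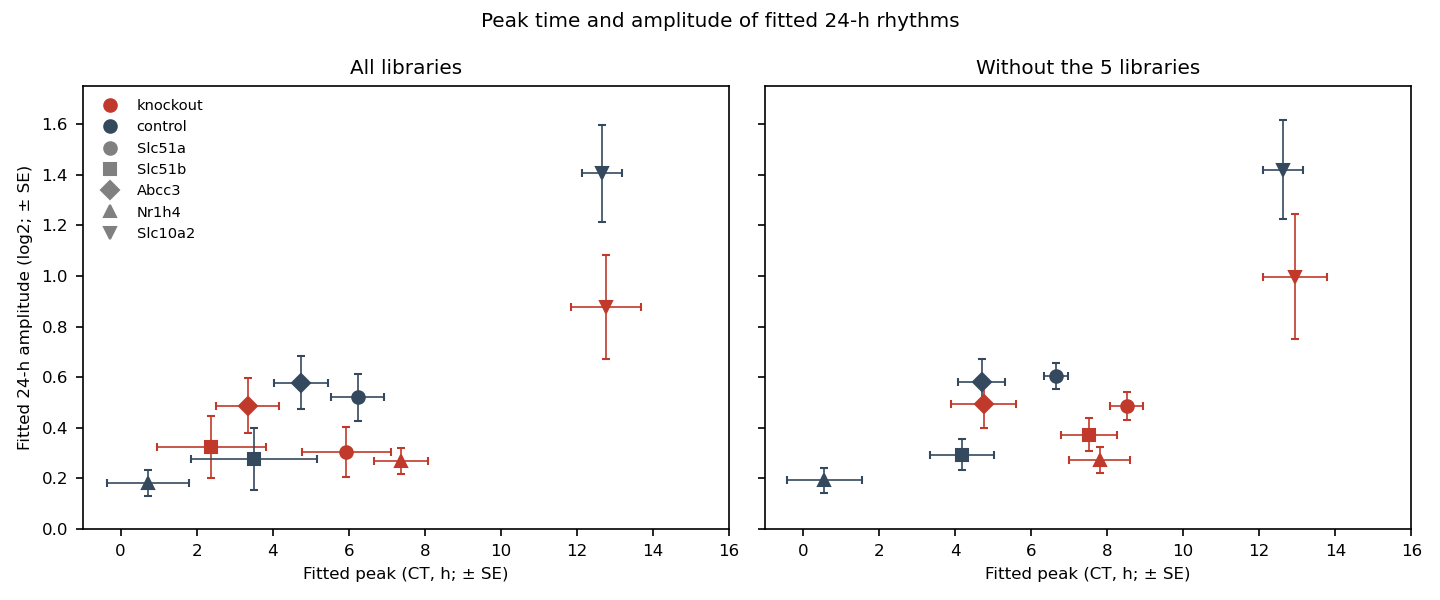
Fitted 24-h amplitude on the log2 scale against fitted peak in CT hours, with bars of 1 SE, for the 5 genes kept by the filter, knockout in red and control in dark blue, from all libraries on the left and without the 5 that stand apart on the right. Nr1h4 has its knockout peak at CT7.37 and its control peak at CT0.723, and Slc10a2 stands alone near CT13 in both genotypes.

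Nr0b2 encodes SHP, the repressor that FXR induces. It is the protein-coding gene ENSMUSG00000037583.2 on chromosome 4, positions 133553376 to 133556536, plus strand, and it summed to 94 counts over 23 knockout libraries and 59 over 24 control libraries. At CT17 the counts were 8, 8, 9 and 10 in knockout and 7, 1, 2 and 5 in control. At CT13 they were 1, 0, 1 and 2 in knockout and 0, 0, 1 and 6 in control. The CT17 knockout libraries were each above every control library of that time, and the counts of the 2 genotypes overlapped at the other 5 times. At CT1 the counts were 5, 3, 7 and 2 in knockout and 2, 6, 3 and 3 in control. At CT21 they were 9, 4, 5 and 2 in knockout and 6, 5, 0 and 0 in control. At CT5 they were 1, 1, 9 and 2 in knockout and 2, 3, 3 and 0 in control. The CT5 knockout group was high in 1 library alone, and at CT9 the counts were 2, 1 and 2 in knockout and 1, 2, 1 and 0 in control. Without the 5 libraries knockout CT1 holds 1 library, so the filter then asks for its minimum in 1 library, and Nr0b2 passed it. Its highest count, 10, was in knockout CT17 replicate 4, so it was kept through the group where it is high. The fitted values are therefore given as a description with no test. The log2 fold change was 0.41 over all times (SE 0.44) and 1.06 at CT17 (SE 0.63).

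Slc10a2 encodes ASBT, the apical uptake carrier of the ileum. It is the protein-coding gene ENSMUSG00000023073.2 on chromosome 8, positions 5083219 to 5105351, minus strand, and it summed to 115 counts in knockout and 165 counts in control libraries. At CT9 the raw counts were 8, 4 and 6 in knockout and 7, 11, 5 and 18 in control. At CT13 they were 11, 10, 14 and 4 in knockout and 16, 13, 13 and 24 in control. At CT17 they were 8, 6, 5 and 7 in knockout and 5, 5, 4 and 9 in control. The counts were highest at CT13 in both genotypes and the ranges touched or overlapped at these times. At CT1 they were 6, 1, 2 and 5 in knockout and 1, 2, 1 and 3 in control. At CT5 they were 3, 2, 2 and 4 in knockout and 6, 2, 2 and 3 in control. At CT21 they were 2, 1, 3 and 1 in knockout and 3, 3, 5 and 4 in control. In CPM the CT21 knockout libraries lay below all control libraries of that time (0.161 to 0.55 CPM in knockout and 0.571 to 0.98 CPM in control), at 1 to 5 counts per library.

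Slc10a2 passed the filter, which asks for 1.84 counts per M of all counts in at least 3 libraries, in 6 libraries, of which 5 were at CT13 (4 in control). It was thus kept through the time at which it is high, and its fitted daily pattern is given as a description with no test. The amplitude on the log2 scale was 0.88 (SE 0.21, peak CT12.8) in knockout and 1.4 (SE 0.19, peak CT12.7) in control. The amplitude in control corresponds to a 7.01-fold range between fitted trough and peak. The mean over times of Slc10a2 was 0.893 CPM in knockout and 1.26 CPM in control (log2 fold change −0.32, SE 0.21). At single times the log2 fold change was −0.83 at CT13 (SE 0.36), −1.16 at CT21 (SE 0.58) and 1.04 at CT1 (SE 0.59). The mean and the CT13 value include the CT13 libraries through which Slc10a2 was kept, so these differences too are given with no test. At this depth 1 count more or less in a library is a large part of its value.

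Fabp6 and Fgf15, which are highly expressed in the ileum, were near the limit of detection in these jejunum libraries. Fabp6, the cytosolic bile acid binder (ENSMUSG00000020405.4, chromosome 11, positions 43596049 to 43601540, minus strand), had 37 counts over the knockout libraries and 33 over the control libraries, at most 6 in a library, and was at 0 in 5 knockout and 4 control libraries. Fgf15, the hormone that signals to the liver (ENSMUSG00000031073.6, chromosome 7, positions 144896531 to 144900953, plus strand), had 8 counts over the knockout libraries and 11 over the control libraries and was at 0 in 18 of 23 knockout and 17 of 24 control libraries. A count of 0 allows up to 3 counts, or 0.439 to 0.703 CPM depending on the library, for counting error only. The Fgf15 counts at CT1 were 0, 0, 2 and 0 in knockout and 1, 1, 1 and 2 in control. At CT5 they were 2, 0, 2 and 0 in knockout and 0, 3, 1 and 2 in control. Fgf15 was at 0 in every library of CT9 and CT21 in both genotypes, and of CT13 and CT17 in control, and knockout had 1 count at CT13 and 1 at CT17. Gm26793 and Gm39119 overlap Fgf15 on the opposite strand, and these counts cannot be assigned by strand. At this depth Fabp6 and Fgf15 did not pass the filter, and no test of a difference in them is given.

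**Figure D5:**
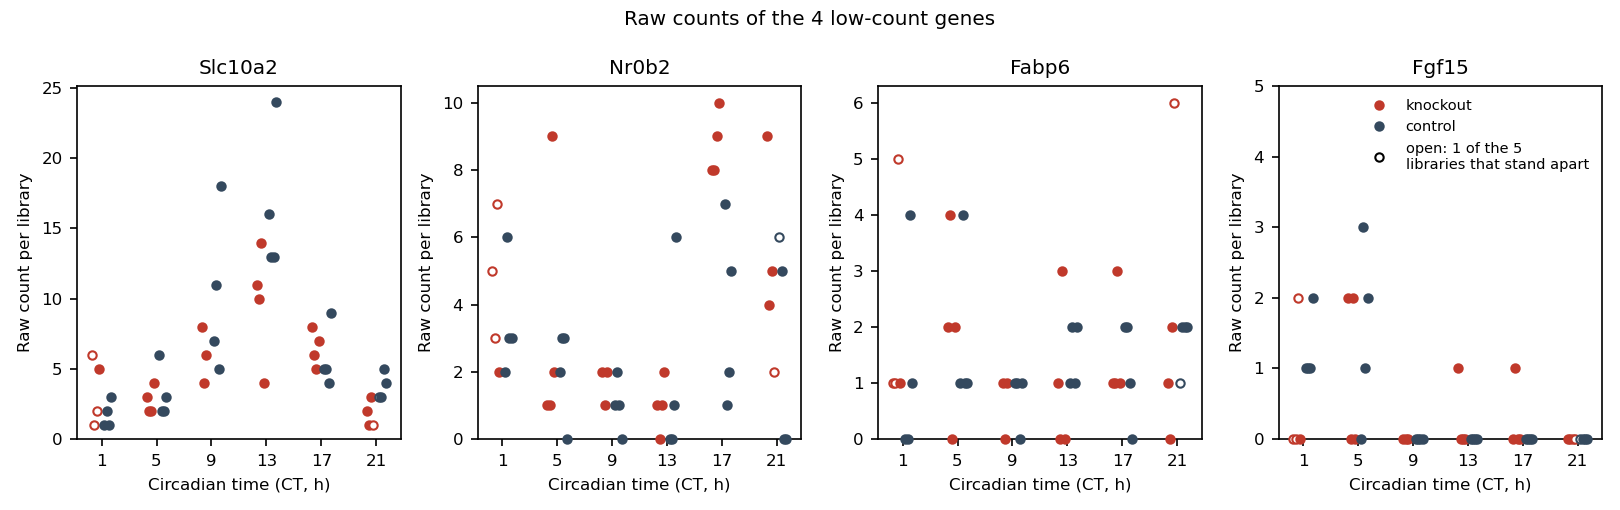
Raw counts per library of Slc10a2, Nr0b2, Fabp6 and Fgf15 against circadian time in hours, knockout in red and left of control in dark blue, with open points for the 5 libraries that stand apart. Slc10a2 is highest at CT13 in both genotypes, the 4 knockout libraries of CT17 hold 8 to 10 counts of Nr0b2, and Fabp6 and Fgf15 stay at or below 6 counts.

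Among other genes of the pathway, the apical export pump Abcc2 (MRP2, which moves conjugates into the gut lumen) went the opposite way to the basolateral exporters. It averaged 300.3 CPM in knockout and 548 CPM in control (log2 fold change −0.82, SE 0.12, edgeR adjusted p = 7.5e-07) and −0.77 without the 5 libraries (1.2e-06). Of 11 other bile acid carriers and binding proteins, 5 passed the filter, of which 1 rose, 2 fell and 2 did not pass. Their median was 0.01, beside −0.0058 for all genes, of which 12.2% rose and 11.0% fell. Fabp2, an intestinal fatty acid binding protein, fell (−0.31, adjusted p = 0.0014), and the liver-type Fabp1, which also binds bile acids, rose (0.26, adjusted p = 0.0032) but not without the 5 libraries (0.13, 0.0698, the highest of the alternatives from 0.0011).

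Of 5 other genes reported to respond to FXR in mouse intestine, all passed the filter, 3 rose and 0 fell. Their median log2 fold change was 0.36, and of all genes 12.2% rose and 11.0% fell. The list was chosen with earlier results of these data known, and FXR activity was not measured. Akr1b7, an aldo-keto reductase, averaged 154 CPM in knockout and 97.3 CPM in control (0.67, SE 0.12, edgeR adjusted p = 3.3e-05). Ang, a secreted ribonuclease, averaged 23.7 CPM in knockout and 16.3 CPM in control (0.55, SE 0.08, adjusted p = 1.3e-06). Il18, an epithelial cytokine, rose by 0.36 (SE 0.07, adjusted p = 8.0e-05), and the same 3 passed without the 5 libraries. Nos2, the inducible nitric oxide synthase (−0.32, SE 0.48, 0.672), and the carbonic anhydrase Car12 (−0.06, SE 0.08, 0.657) did not pass.

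Of 16 bile acid receptors and factors that work with them, 14 passed the filter, of which 1 rose, 2 fell and 11 did not pass. Their median was −0.02, and of all genes 12.2% rose and 11.0% fell. The vitamin D receptor Vdr, which also binds the secondary bile acid lithocholic acid, was lower (−0.15, SE 0.04, edgeR adjusted p = 0.0052) but not without a filter on low counts (0.0586, the highest of the alternatives from 6.1e-04). The membrane receptor S1pr2 (−0.35, SE 0.12, adjusted p = 0.0380) did not pass without the filter (0.0765, alternatives from 0.0230). It also did not pass in 12 of the 47 fits that left out 1 library, which were those of knockout CT1 replicates 1 and 4, knockout CT5 replicate 3, knockout CT9 replicate 4, knockout CT13 replicate 2, knockout CT21 replicate 3, control CT1 replicates 1 and 2, control CT5 replicate 2, control CT9 replicate 1, control CT13 replicate 1 and control CT21 replicate 3 (up to 0.0754). The oxysterol receptor Nr1h3 rose (0.22, SE 0.08, adjusted p = 0.0336) but not without the 5 libraries (0.0774), with upper quartile scaling (0.0584) or without knockout CT21 replicate 4 (0.0541), control CT5 replicate 2 (0.0505), control CT9 replicate 3 (0.0509) or control CT17 replicate 1 (0.0563), with alternatives from 0.0177. Rxra, the partner of FXR on DNA, averaged 156 CPM in knockout and 149.6 CPM in control and did not pass (0.06, SE 0.04, 0.328).

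Of 9 genes of FGF15 signalling and bile acid synthesis, 5 passed the filter, 0 rose, 1 fell and 4 did not pass. Their median was 0.13, and of all genes 12.2% rose and 11.0% fell. Without the 5 libraries 1 more rose, Malrd1, which is linked to FGF15 production in mouse intestine (0.22, adjusted p = 0.0199, against 0.17 and 0.133 with all libraries). Cyp27a1, a sterol hydroxylase of the alternative route of synthesis, averaged 72.6 CPM in knockout and 96.9 CPM in control (−0.40, SE 0.09, edgeR adjusted p = 6.6e-04). Cyp7a1, the rate-limiting enzyme of the classical route in liver, had 0 counts in all libraries.

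Markers of intestinal segments and cell types moved in some lists beside these genes. Of all genes 12.2% rose and 11.0% fell with all libraries, and the shares without the 5 libraries are given above. Of 14 markers of distal villus enterocytes, 8 rose, 2 fell and 4 did not pass (7 rose and 2 fell without the 5 libraries), and their summed level outside the 5 libraries was 3911 to 6474 CPM in knockout and 3763 to 5144 CPM in control. Of 14 markers of proximal villus enterocytes, 4 rose and 2 fell (2 and 4 without the 5 libraries). Their sums outside the 5 libraries were 12532 to 17455 CPM in knockout and 12206 to 23847 CPM in control. In the libraries that stand apart they were 15457 to 24724 CPM in the 4 of knockout and 19555 CPM in the 1 of control. The 5 immune markers (Ptprc, Cd3e, Cd8a, Cd74 and Lyz2) all fell with all libraries and without the 5, with sums of 419 to 586 CPM in knockout and 607 to 2239.6 CPM in control outside the 5 libraries. Of the 5 enterocyte markers 2 rose (Alpi and Sis) and 1, Fabp2, fell, with all libraries and without the 5. Of 3 duodenal markers 2 passed the filter, where Cybrd1, an iron reductase, fell (−0.38, adjusted p = 4.8e-04) and Onecut2 did not pass (0.18, 0.203) but rose without the 5 libraries (0.29, 0.0034). Of 4 acinar markers 2 passed the filter and 0 rose or fell (Clps 0.17, adjusted p = 0.319, and Cela1 −0.11, 0.512), and Cela1 fell without the 5 libraries (−0.30, 0.0255). Of 4 hepatocyte markers Ttr alone passed the filter and rose (0.49, adjusted p = 0.0301), but not without the 5 libraries (0.38, 0.121), with sums of the 4 of 2.45 to 6.14 CPM in knockout and 0.952 to 5.28 CPM in control outside the 5. Of 5 smooth muscle markers 0 passed in either direction (adjusted p = 0.555 to 0.932). The part of these shifts in the values of the bile acid genes was not tested.

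For each of the 5 genes, the 3 genes with the most similar log2 CPM over the 12 group means are given as a description. For Slc51a they were Upk1b (Pearson r = 0.95), Gm44386 (0.94) and Cyp2c55 (0.94). For Slc51b they were Liph (0.96), B4galt4 (0.96) and 4430402I18Rik (0.95), and for Abcc3 they were Aplp2 (0.96), Pigr (0.95) and Gstm3 (0.95). Those nearest to Nr1h4 were Slc9a3 (0.95), Slc35f5 (0.94) and Ces2b (0.93), and those nearest to Slc10a2 were Cbx6 (0.95), Hlf (0.94) and Arhgap27 (0.94). These 12 values share the 5 libraries that stand apart, and without them the r of the 15 named genes lay between 0.81 and 0.96.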

How the data were processed

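Gene expression was measured by RNA sequencing of jejunum in 47 libraries of 12 genotype and time groups. The labels describe 48 samples, and 1 knockout CT9 sample, which no column matched by name, was not analysed here. Replicate numbers were given in accession order and pair nothing. The authors deposited raw counts of reads per gene, not scaled. Per the labels' protocols a NucleoSpin kit was used to purify RNA, and the TruSeq Stranded mRNA kit to make libraries. The submitters' processing notes name the mm10 genome, STAR 2.7.5c and featureCounts 1.4.6, besides Trimmomatic 0.39, SAMtools 1.3.1, FastQC 0.11.5 and DESeq2 1.22.0, and the sources used here give no settings or annotation release.

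For 99.5% of the IDs, GENCODE's annotation of mm10 gave symbol and position. In R 4.3.3 with edgeR 4.0.16, filterByExpr (12 groups, minimum count 10, total 15) removed low genes and TMM scaled the libraries. Without the 5 libraries that stand apart its smallest group holds 1 library, so the filter was looser and kept 16463 genes. Robust quasi-likelihood fits over all libraries and genes used 1 mean per group (35 residual degrees of freedom), with a shared estimate of spread, or, for rhythms, a level and 24-h cosine and sine terms for each genotype (41 residual degrees of freedom). Log2 fold changes are knockout minus control, and amplitude is the height of the peak over the mid-level. Adjusted p-values are Benjamini-Hochberg values of edgeR over all kept genes unless another tool is named. Standard errors (SE) come from the F statistic. CPM means over a genotype average its 6 group means, so their ratio need not equal the fold change. Correlations used log2 CPM with a prior count of 2. The scripts were tested on simulated counts.

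No pair of libraries within a group agreed within sampling noise (smallest chi-square per degree of freedom 3.51 over 69 pairs). The limits given for counts of 0 hold for counting error alone, and no molecular identifiers are described, so reads need not be separate molecules. Alternatives were other scalings, no filter, limma-voom (limma 3.58.1), DESeq2 1.42.0, a prior count of 2, a covariate of library spread, and fits without the 5 libraries whose interquartile range of relative log expression exceeded 0.5 or without each library in turn. The 8 genes and the lists were chosen with earlier results of these data known, and 2 listed marker genes are not reported here. Named besides the 8 were genes of those lists that passed in the mean over times, up to 4 per list, with others of the lists given as background, and the 3 genes most alike over group means.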

Additional observations from a re-analysis of the deposited data

Results flagged for a closer look

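The 24-h pattern of Nr1h4, the bile acid receptor FXR, differed between knockout and control (edgeR adjusted p = 0.0106), with fitted peaks at CT7.37 in knockout and CT0.723 in control.

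In 4 of 55 groups of 4 libraries (7.27%) 1 library lay apart from the other 3 by Dixon's ratio of gap to range, where chance gives about 1 in 20 groups, and 2 of the 4 were among the 5 libraries that stand apart as a whole. Slc51b was high in knockout CT21 replicate 4 (ratio 0.860), with 265 CPM, against 58.0 to 86.9 CPM in the other knockout libraries of that time. Slc51a was high in control CT21 replicate 1 (ratio 0.898), with 190.5 CPM, against 93.2 to 103 CPM in the others. Slc51a was low in control CT1 replicate 1 (ratio 0.918), with 120.2 CPM, against 146 to 149 CPM. Abcc3 was low in control CT13 replicate 4 (ratio 0.832), with 49.3 CPM, against 52.6 to 53.3 CPM in the others, a narrow group.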

How the results depend on the processing

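The rise of Slc51a, Slc51b, Abcc3 and Nr1h4 in the mean over times kept its direction and passed in all 8 other settings and in all 47 fits without 1 library. Counts of genes called over the whole table moved more. At CT1 3233 genes were called, against 2097 without a filter, 40 without the 5 libraries and 1278 with library spread as a covariate. Those without the 5 libraries and with the covariate were 282 and 226 at CT5 (131 in the reported fit), 1029 and 949 at CT9 (563), 1154 and 1026 at CT13 (530) and 835 and 700 at CT17 (327). Without a filter they were 349 at CT13 and 196 at CT17. The covariate gave 379 at CT21 (224) and 1488 for the knockout rhythm (2277), and DESeq2 gave 383 for the variation of the genotype difference with time (185). Leaving out 1 library gave 1319 to 4541 at CT1, 69 to 156 at CT5, 258 to 761 at CT9, 327 to 680 at CT13, 191 to 437 at CT17, 129 to 364 at CT21, 129 to 681 for the variation with time and 1673 to 3600 for the knockout rhythm. The cause was not tested.

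Values that changed sign had not passed, except Slc51b at CT1, which was −0.020 without the 5 libraries, where knockout CT1 has 1 library. Nr1h4 at CT1 was −0.22 without them, and Slc10a2 at CT17 was −0.0028 with upper quartile scaling. Leaving out 1 library gave −0.062 to 0.15 for Nr1h4 at CT1, −0.46 to 0.25 for Slc10a2 at CT5 and −0.13 to 0.34 for Slc10a2 at CT17. Within control libraries r was −0.0197 for Slc51a with Nr1h4, −0.0602 for Slc51b with Nr1h4, 0.118 for Slc51b with Slc10a2, −0.101 for Abcc3 with Slc10a2 and 3.1e-04 for Nr1h4 with Slc10a2. Without the 5 libraries (over 41 libraries, as knockout CT1 then has 1) r was 0.123 for Slc51a with Slc10a2 (0.0641 within knockout), 0.240 for Slc51b with Slc10a2 and 0.148 for Nr1h4 with Slc10a2. Depth limits Slc10a2, Nr0b2, Fabp6 and Fgf15, at a few counts per library. No paired analysis was possible because the labels give no replicate numbers that tie knockout to control libraries.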
